A study of Mus musculus with 12 samples.

Results

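AGO2 binding on the thin filament transcripts of skeletal muscle was examined in tibialis anterior (TA) muscle of WT and mir-486 KO mice. The 10 genes were taken by name and were Acta1, the tropomyosins Tpm1, Tpm2 and Tpm3, and the troponins Tnnt1, Tnnt3, Tnni1, Tnni2, Tnnc1 and Tnnc2. They are 10 of 17864 genes with a listed peak in at least 1 of the 4 libraries. All listed peaks that overlapped one of these genes by at least 1 nt on the same strand were used, with no threshold. There were 190 such peaks of 92451 in WT set 1, 244 of 119859 in KO set 1, 287 of 244814 in WT set 2 and 291 of 256219 in KO set 2. No member peak overlapped another gene on the same strand.

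The assay was chimeric eCLIP, in which AGO2, the protein that carries microRNAs, is cross-linked to RNA and immunoprecipitated with the RNA it holds. The labels describe 2 library sets, each with 1 total immunoprecipitated library of WT and 1 of mir-486 KO muscle, and each library has its own input. All muscle was from male mice of 6 months. KO mice lacked mir-486 on both alleles, through a CRISPR deletion of the hairpin, and WT mice carried the intact locus. The strain label reads C57BL/6 on every WT sample and FVB N/J on every KO sample, whereas the methods describe one backcrossed background, so strain and genotype cannot be told apart here. Neither the labels nor the methods tie the sets to separate mice, and the spread over sets may be technical. Mir486 itself had 2 listed peaks in WT set 1, 4 in WT set 2 and 0 in both KO libraries.

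The thin filament is the actin-based cable that myosin pulls on. Actin forms its core, tropomyosin lies along the actin and covers the myosin sites, and the troponin complex moves tropomyosin when calcium arrives. Troponin C binds calcium, troponin I inhibits, and troponin T ties the complex to tropomyosin. Fast and slow fibres build this apparatus from different genes. Tnnt3, Tnni2 and Tnnc2 are the fast skeletal troponins, and Tnnt1, Tnni1 and Tnnc1 the slow ones, of which Tnnc1 also serves the heart. Tpm1 is the main fast tropomyosin, Tpm3 the slow one, and Tpm2 is used by both fibre types. The TA of the mouse is a mainly fast muscle.

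A microRNA word was found at AGO2 sites of all 3 tropomyosins, and the sites are shown first because the later results return to them. The word is ACATTCC, which pairs with bases 2 to 8 (the seed) of miR-206, a muscle microRNA that shares its seed with miR-1. RefSeq gives the mature microRNA as follows, with the seed in capitals.

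miR-206-3p: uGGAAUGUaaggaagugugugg

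In the sites below the capitals mark ACATTCC. Each is 30 nt of GRCm38.p6 on the strand of the gene.

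Tpm2 3′ UTR, chr4:43514945-43514974, minus strand: aagtgtctcctaACATTCCtaacatggttt

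Tpm3 3′ UTR, chr3:90099912-90099941, plus strand: aaccatttttaACATTCCaagcacttctgc

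Tpm1 intron, chr9:67036866-67036895, minus strand: ttgacttttaagACATTCCaataagcttag

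Tpm1 intron, chr9:67046936-67046965, minus strand: tttcgcaccactACATTCCactggagaagc

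At the Tpm3 site and at both Tpm1 sites the word is followed by A, the base that extends a seed match, and at the Tpm2 site by another base. The Tpm2 and Tpm1 words lay wholly inside a listed peak in each library that had one there. The Tpm3 word lay at the edge of its peak, with 5 of its bases inside the peak in KO set 2, 1 in WT set 2 and 0 in both libraries of set 1, where the peak ended within 25 nt of it. These sites were singled out after their values were seen, and not every strong tropomyosin site held the word. The highest Tpm2 peak of WT set 1, 6 nt at an intron edge at chr4:43519300-43519305, had a log2 fold of 3.40 without it, and overlapping peaks reached 2.20 in KO set 1 and 1.26 in WT set 2. Nor did every word lie at a listed peak. Of the 4 words in Tpm3, 1 had a listed peak within 25 nt in some library, as did all those of Tpm1 and Tpm2. The words in Tnnt1 (3), Tnni1 (2), Tnnt3 (1) and Acta1 (1) had none.

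At the Tpm2 word the log2 fold over input was 2.58 in WT set 1, 2.03 in KO set 1, 2.69 in WT set 2 and 2.53 in KO set 2. The mean was 2.46 ± 0.29 (SD, n = 4 libraries). The 4 values lay close together, and the lowest −log10 p among them was 42.7, in KO set 1. A log2 fold over input compares the share of reads at a peak in the immunoprecipitate with that in input, and the −log10 p is the authors' test of it within 1 pair of libraries. The peak in WT set 2 was only 21 nt long, at chr4:43514949-43514969, and was the highest of the 56 Tpm2 peaks in that library.

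At the Tpm3 word the values were 1.96 in WT set 1, 3.50 in KO set 1, 1.99 in WT set 2 and 2.39 in KO set 2, with a mean of 2.46 ± 0.72 (SD, n = 4). Only the peaks of set 2 passed a −log10 p of 3, at 6.79 and 6.60. In set 1 the values were 1.30 and 2.92, so the high fold in KO set 1 rested on weak evidence.

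The first Tpm1 intron site had a log2 fold of 4.50 in WT set 1, 2.64 in KO set 1 and 3.07 in KO set 2, and no listed peak in WT set 2. The second had 2.52, 1.81 and 1.95 in the same libraries, and again no listed peak in WT set 2. The first was the highest Tpm1 peak in each library that listed it. WT set 2 therefore stood apart at both intron sites, with 46 Tpm1 peaks in all and a highest value of 0.85.

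Peaks were then extended by 25 nt on each side and searched for the word. It was found in 4 of 190 member peaks in WT set 1, 5 of 244 in KO set 1, 4 of 287 in WT set 2 and 5 of 291 in KO set 2, and all of these were tropomyosin peaks. Their lowest log2 folds were 1.96, 1.81, 1.99 and 1.95, and their medians 2.55, 2.48, 2.53 and 2.53. Tropomyosin peaks without the word had medians of 0.69, −0.23, 0.21 and −0.07. The word sites lay in 3′ UTRs and introns, whereas most tropomyosin peaks lay in coding sequence. By region, all tropomyosin peaks had medians of 0.76, −0.40, 0.05 and −0.23 in coding sequence and 0.96, 1.36, 1.73 and 1.41 in 3′ UTRs. Peaks with and without the word were not matched by region, so word and region cannot be told apart here. Some of the peaks with the word adjoin at 1 site, so they are not independent. Among all listed peaks the word was more common than among members, at 4.81%, 3.08%, 3.33% and 3.00% of peaks against 2.11%, 2.05%, 1.39% and 1.72%. All listed peaks with the word had medians of 1.20, 0.91, 1.47 and 1.24, and those without it 0.68, 0.38, 0.47 and 0.41.

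Within 3′ UTRs the order was the other way. The word was in 2 of 19 member 3′ UTR peaks in WT set 1 (10.5%), 3 of 35 in KO set 1 (8.57%), 4 of 43 in WT set 2 (9.30%) and 3 of 39 in KO set 2 (7.69%). Of all listed 3′ UTR peaks it was in 4.41%, 2.92%, 3.34% and 3.32%. In windows of 100 nt around each peak midpoint, which give all peaks the same length, the member counts were 1, 0, 2 and 2 peaks and the shares of all 3′ UTR peaks 3.94%, 2.43%, 2.27% and 2.45%. With so few member peaks the excess depends on the window.

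The Tpm2 3′ UTR held 2 further words downstream of the miR-206 word. The miR-206 word begins 962 nt into the UTR, the miR-30a word 1022 nt and the let-7a word 1035 nt. Both microRNAs are widely expressed. The words are shown because they lie under the same cluster of peaks.

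miR-30a-5p: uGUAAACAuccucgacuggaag

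let-7a-5p: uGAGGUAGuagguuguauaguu

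Tpm2 3′ UTR, chr4:43514878-43514907, minus strand: cctccTGTTTACcctcccCTACCTCacctg

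The capitals mark TGTTTAC for miR-30a and CTACCTC for let-7a. The peaks over both words had log2 folds of 2.58 in WT set 1, 2.48 in KO set 1, 2.04 in WT set 2 and 1.99 in KO set 2. Along the 1213 nt of this 3′ UTR the log2 fold was low next to the coding sequence and highest around the 3 words, with a lower rise between. The peaks over the first bases of the UTR had values of 1.22, −0.13, 0.39 and 0.21 in WT set 1, KO set 1, WT set 2 and KO set 2, and the cluster around the words reached 2.58, 2.48, 2.69 and 2.6. The rise before it reached 2.42 in KO set 1, 2.04 in WT set 2 and 1.69 in KO set 2. In KO set 1 it was thus nearly as high as the cluster, and higher than the peak over the miR-206 word, at 2.03. WT set 1 had no listed peak there.

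**Figure D1:**
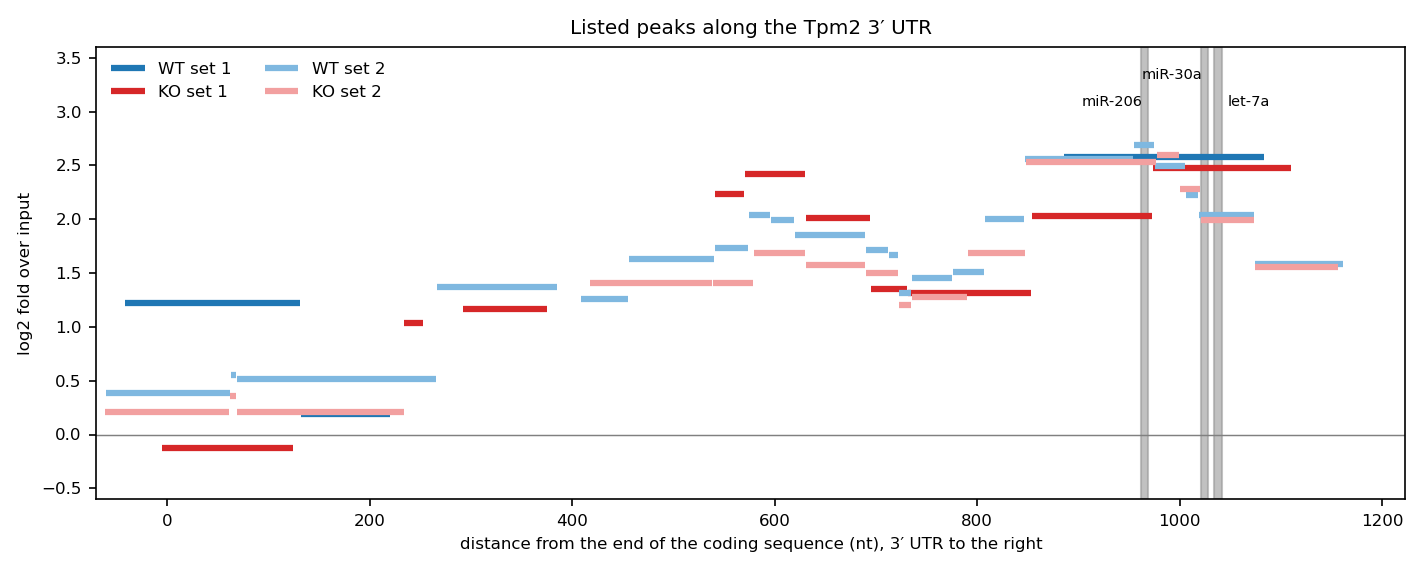
Log2 fold over input (vertical axis) of each listed peak along the Tpm2 3′ UTR, by distance in nt from the end of the coding sequence (horizontal axis), in the 4 libraries. Each bar spans 1 peak and the grey bands mark the words for miR-206, miR-30a and let-7a. All 4 libraries are highest around these words, where values reach 2.48 to 2.69. In KO set 1 the peak over the miR-206 word has 2.03, below a peak at 571 to 630 nt with 2.42.

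The tropomyosin 3′ UTRs differed among themselves. The median log2 fold of 3′ UTR peaks in Tpm2 was 1.22 in WT set 1 (3 peaks), 1.69 in KO set 1 (10), 1.72 in WT set 2 (20) and 1.54 in KO set 2 (14). In the coding sequence (CDS) of Tpm2 it was 0.33, 0.24, 0.47 and 0.21. Tpm3 showed the same order, with 3′ UTR medians of 0.96, 1.97, 1.89 and 1.34 over 3 to 5 peaks and CDS medians of 0.20, −0.52, 0.59 and 0.01. Tpm1 did not. It had 1 or 2 listed 3′ UTR peaks per library, with medians of −0.89, −1.45, −1.08 and −1.12, all below those of its CDS at 1.26, −0.45, −0.13 and −0.30. Tpm1 has 21 annotated transcripts, and its intron sites above are exonic in none of them.

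Most member peaks lay in coding sequence, 135 of 190 in WT set 1 (71.1%), 175 of 244 in KO set 1 (71.7%), 221 of 287 in WT set 2 (77%) and 221 of 291 in KO set 2 (75.9%). Peaks in 3′ UTRs made up between 10% and 15%. Levels of AGO2 binding were compared with input next, gene by gene.

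Over all member peaks the median log2 fold over input was 1.0 in WT set 1, −0.47 in KO set 1, −0.17 in WT set 2 and −0.34 in KO set 2. The lists as a whole had medians of 0.68, 0.38, 0.47 and 0.45. The members were therefore above the list median in WT set 1 only and below it in the other 3 libraries. The lists hold many peaks at 1 recurring value. The commonest value stood at 18.9%, 24.9%, 9.93% and 10.5% of all listed peaks, but at 6, 1, 4 and 1 member peaks. In KO set 1 that value, 0.38, is the list median itself, so the list median is no neutral reference for the members. A negative value means that the peak held a smaller share of reads in the immunoprecipitate than in input. Of the members' peaks, 84.7% were above 0 in WT set 1, 27.5% in KO set 1, 43.2% in WT set 2 and 38.5% in KO set 2, against 77.8%, 69.1%, 68.9% and 64.5% of all listed peaks. The commonest values, 0.46, 0.38, 1.06 and 0.82 in the same order, are all above 0 and raise the shares of all listed peaks.

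Some other gene lists were also highest in WT set 1, and these were not of skeletal muscle alone but included smooth muscle, red cell and fibroblast markers. Macrophage and cardiac markers were highest in WT set 2. In WT set 1, KO set 1, WT set 2 and KO set 2 the macrophage medians were 0.46, 0.38, 0.72 and 0.24, and the cardiac ones 0.59, −0.59, 1.06 and 0.82. A list of 8 skeletal muscle markers, all with listed peaks, had medians of 0.97 in WT set 1, −0.51 in KO set 1, 0.11 in WT set 2 and 0.17 in KO set 2. These medians pool peaks, and the gene with the most held 664 of 1026, 843 of 1274, 1411 of 2133 and 1464 of 2148. Cardiac Nppa, Nppb, Myl7 and Tnni3 had no listed peak in any library, and Tnnt2 had 2 in each library of set 2 only. Myh6, the sixth of the cardiac markers and a close paralog of the slow myosin Myh7, had 16 in WT set 1, 12 in KO set 1, 4 in WT set 2 and 12 in KO set 2, and reads of the pair may be divided between them with error. Smooth muscle markers had peaks in 3 or 4 of 4 genes, red cell markers in 4 to 6 of 6, macrophage markers in 5 or 6 of 6 and fibroblast markers in 5 of 5. In whole muscle, fewer cells of a type and less RNA per cell cannot be told apart.

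Acta1, the actin of the skeletal muscle thin filament, was the most densely covered gene and among the least enriched. Its coding sequence is close to those of Actc1 and Acta2, so reads there may be shared with these genes. Its listed peaks covered 714 nt per kb of merged exons in WT set 1, 863 in KO set 1, 878 in WT set 2 and 884 in KO set 2. Its median log2 fold over input was 0.97 over 34 peaks in WT set 1, −1.11 over 59 in KO set 1, −1.17 over 69 in WT set 2 and −1.08 over 71 in KO set 2. In both libraries of set 2 all peaks of Acta1 were below 0, and in KO set 1 only 1 was above. WT set 1 was the exception, with 31 of 34 above 0.

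Tpm1 had medians of 1.27, −0.44, −0.10 and −0.28 over 30, 41, 46 and 57 peaks in WT set 1, KO set 1, WT set 2 and KO set 2. The covered length hardly moved, between 182 and 186 nt per kb. Tpm2 had medians of 0.34, 0.74, 1.09 and 0.42 in the same order, and Tpm3 of 0.24, 0.51, 1.06 and 0.51. Tpm2 and Tpm3 were the only members with medians above 0 in all 4 libraries of those listed in all 4, and their lowest value was in WT set 1, where Acta1, Tpm1 and the fast troponins had their highest. Their SDs over the 4 libraries, 0.34 for each, were the smallest of the 10 genes.

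**Figure D2:**
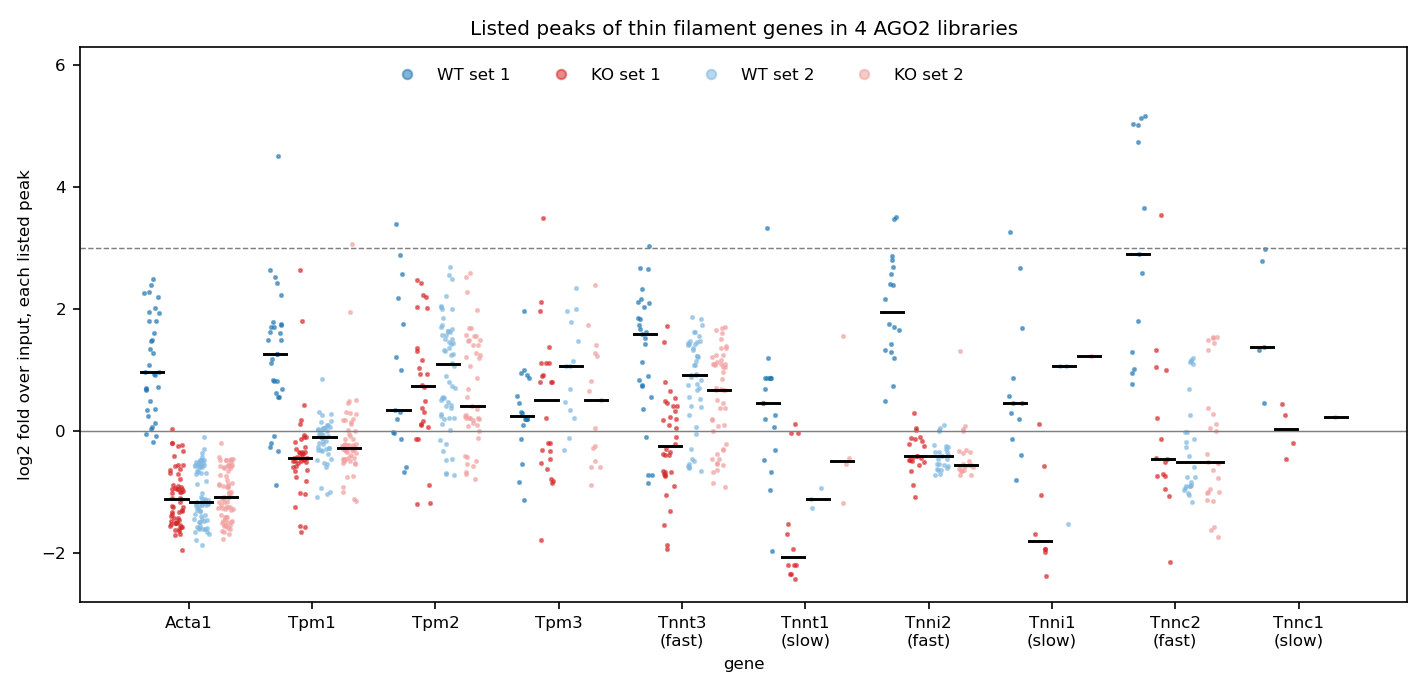
Log2 fold over input (vertical axis) of every listed peak of the 10 genes (horizontal axis) in the 4 libraries, with a bar at each median and a dashed line at the threshold of 3. Acta1, Tpm1, Tnni2 and Tnnc2 lie higher in WT set 1 than in the other libraries, and Tpm2 and Tpm3 do not.

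Among the fast troponins, Tnnt3 had medians of 1.59, −0.25, 0.92 and 0.68 over 27, 34, 45 and 49 peaks in WT set 1, KO set 1, WT set 2 and KO set 2. Tnni2 had 1.96, −0.42, −0.41 and −0.56 over 18, 21, 25 and 22 peaks. Tnnc2 had 2.90, −0.46, −0.50 and −0.52 over 13, 15, 26 and 26 peaks. All 3 were highest in WT set 1, and only Tnnt3 was above 0 in set 2.

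Among the slow troponins, Tnnt1 had medians of 0.46, −2.07, −1.11 and −0.49 over 18, 12, 3 and 4 peaks. Tnni1 had 0.46, −1.81, 1.06 and 1.24 over 12, 8, 3 and 1 peaks. Tnnc1 had 1.38 over 5 peaks in WT set 1, 0.03 over 4 in KO set 1, no listed peak in WT set 2 and 0.24 at 1 peak in KO set 2. The value 0.46 is the commonest in the WT set 1 list, at 18.9% of its peaks, and stood at 5 of the 35 slow troponin peaks and at none of the 58 fast ones. In the same way 1.06, the commonest value of WT set 2, stood at 2 of its 6 slow troponin peaks.

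Ordered by the mean of the 4 library medians, Tnnt3 came first at 0.73 ± 0.76 (SD, n = 4), then Tpm2 at 0.65 ± 0.34, Tpm3 at 0.58 ± 0.34, Tnnc1 at 0.55 ± 0.73 over 3 libraries, Tnnc2 at 0.35 ± 1.70, Tnni1 at 0.24 ± 1.41, Tnni2 at 0.14 ± 1.21, Tpm1 at 0.11 ± 0.78, Acta1 at −0.60 ± 1.04 and Tnnt1 at −0.80 ± 1.06. No neighbours in this order were apart by more than the larger of their SDs.

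The isoform contrast asked whether AGO2 binding relative to input differed between the fast and the slow troponins. Pooled by fibre type, peaks of Tnnt3, Tnni2 and Tnnc2 had medians of 1.74 in WT set 1, −0.38 in KO set 1, −0.01 in WT set 2 and 0.01 in KO set 2. Peaks of Tnnt1, Tnni1 and Tnnc1 had 0.46, −1.69, −1.03 and −0.10. The fast troponins were higher in 4 of 4 libraries, by 1.29, 1.31, 1.01 and 0.11 on the log2 scale, with a mean of 0.93 ± 0.56 (SD, n = 4). The exact two-sided sign-flip test over the 4 libraries gave p = 0.125, the smallest this design allows. In KO set 2 the difference was −0.21 with exon peaks only and −0.46 with every gene counted once, so the direction then held in 3 of 4 libraries. With every gene counted once the difference in WT set 2, where Tnnc1 had no listed peak, was only 0.025. With Tpm1 added to the fast and Tpm3 to the slow genes the mean became −0.07, with p = 0.875 in the same exact test, so the order was seen for the troponins and not for the wider sets.

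The pairs behaved unequally. For troponin T the fast gene was higher by 1.13, 1.82, 2.03 and 1.17 in WT set 1, KO set 1, WT set 2 and KO set 2, in 4 of 4 libraries. For troponin I it was higher by 1.5 and 1.4 in set 1, and its difference was −1.47 and −1.80 in set 2, where Tnni1 had 3 peaks and 1 peak. For troponin C it was higher by 1.52 in WT set 1 and its difference was −0.49 in KO set 1 and −0.75 in KO set 2. Only the troponin T pair kept 1 direction. When every gene counted once, the mean difference was 0.46 with p = 0.375 in the same exact test.

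The number and extent of listed peaks divided fast from slow more clearly than the fold did, and differed between the sets. Both are measures of called peaks and not of binding over input, and RNA abundance of the troponins was not analysed here. Slow troponins had 35 of the 93 troponin peaks in WT set 1 (37.6%, 95% Wilson interval 28.5 to 47.8), 24 of 94 in KO set 1 (25.5%, 17.8 to 35.2), 6 of 102 in WT set 2 (5.88%, 2.72 to 12.2) and 6 of 103 in KO set 2 (5.83%, 2.70 to 12.1). The intervals cover counting error only. The lists of set 2 were the longer ones, yet held fewer slow troponin peaks, in WT and in KO alike. Fast troponins had 58 and 70 peaks in set 1 and 96 and 97 in set 2, but per 10000 listed peaks they had 6.27 and 5.84 in set 1 and 3.92 and 3.79 in set 2. The slow troponins had 3.79 and 2.0 per 10000 in set 1 and 0.245 and 0.234 in set 2.

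Per kb of merged exons, listed peaks covered 435, 584, 570 and 578 nt of the fast troponins in WT set 1, KO set 1, WT set 2 and KO set 2. They covered 275, 245, 52.9 and 64.9 nt of the slow ones. Tnnc1 fell from 416 and 438 nt per kb in set 1 to 0 and 90.3 in set 2 in this measure, Tnnt1 from 304 and 279 to 67.2 and 127, and Tnni1 from 217 and 167 to 59.4 and 19.7. These are differences between 2 libraries and 2 libraries and were not tested. Merged exons join those of all annotated transcripts, and among the troponins ran from 800 nt in Tnnc2 to 3600 nt in Tnni1.

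**Figure D3:**
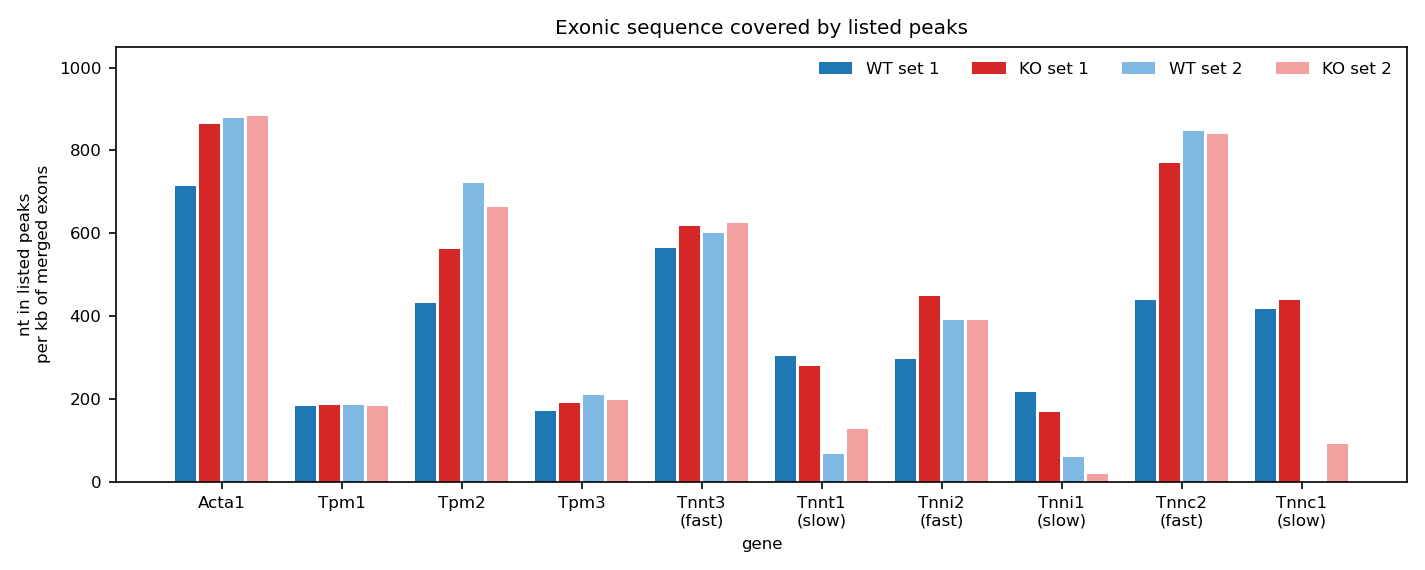
Nucleotides within listed peaks per kb of merged exons (vertical axis) for the 10 genes (horizontal axis) in the 4 libraries, 1 bar per library. The slow troponins Tnnt1, Tnni1 and Tnnc1 are covered by 167 to 438 nt per kb in set 1 and by 0 to 127 in set 2, whereas the fast troponins together are covered by 435 and 584 nt per kb in set 1 and by 570 and 578 in set 2.

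Among slow myosin genes, Myh7 and Myl2 had fewer listed peaks in set 2, as the slow troponins did. Myh7, the slow myosin heavy chain, had 53 and 51 listed peaks in set 1 and 1 and 0 in set 2 (WT first in each). Myl2, the slow regulatory light chain, had 10 and 10 in set 1 and 1 and 2 in set 2. Myh7b had 4, 3, 8 and 18 peaks in WT set 1, KO set 1, WT set 2 and KO set 2, and Myl3, another slow light chain, 8, 5, 7 and 8, so the slow myosins did not move as one. Of the other genes of a 10-gene slow fibre list, Mybpc1 had 68, 69, 108 and 121 peaks and Atp2a2 33, 37, 34 and 39 in the same order. Per 10000 listed peaks, which allows for the longer lists of set 2, the slow list had 21, 16, 7.60 and 8.66 peaks and a 10-gene fast fibre list 57.0, 47.8, 40.1 and 36.5, so both were lower in set 2. Whether the muscle samples of the sets held different shares of slow fibres was not tested.

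Peaks were called enriched when log2 fold and −log10 p over input both reached 3. There were 13 such member peaks in WT set 1 (6.84%), 1 in KO set 1 (0.410%), 0 in WT set 2 and 1 in KO set 2 (0.344%). Of all listed peaks 3.57%, 0.848%, 1.42% and 1.23% were enriched in the same order. The members' share was above the background in WT set 1 only. The 13 peaks were on 7 genes, with 6 on Tnnc2, 2 on Tnni2 and 1 each on Tnni1, Tnnt1, Tnnt3, Tpm1 and Tpm2. At a lower fold and the same −log10 p the members stood above the background in every library. With a log2 fold of 1 or more and the same −log10 p, 45.8%, 6.97%, 20.2% and 16.8% of member peaks passed, against 7.14%, 1.99%, 5.37% and 4.72% of all listed peaks. This share is not one of fold alone. By the fold with no p threshold, the members were above 0 less often than all listed peaks in KO set 1, WT set 2 and KO set 2, where the recurring values above 0 raise the share of all. Whether the number of reads at a peak set the difference was not tested.

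Tnnc2, the calcium sensor of fast fibres, is on the study's own list of miR-486 targets, which was drawn from libraries of this series and is no independent evidence. In WT set 1 its 6 enriched peaks fell at 2 places. One was the coding sequence at chr2:164778176-164778230, where 5 adjoining peaks had log2 folds from 3.65 to 5.18, the last 2 nt lying past the exon boundary. The same stretch had highest values of 1.05 in KO set 1, 1.19 in WT set 2 and 1.53 in KO set 2. It holds the let-7a word and a word for miR-133b, a muscle microRNA, which crosses borders between adjoining peaks. These words too were singled out after the values were seen. The miR-133b words of Tnni1 (3), Tpm2 (2), Tnnt3 (1) and Tpm3 (1) had no listed peak within 25 nt in any library. Nor had the let-7a words of Tnnc1, Tnni1 and Tnnt3 (1 each), while those of Tpm2 and Tnnt1 did.

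miR-133b-3p: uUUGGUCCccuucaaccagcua

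Tnnc2 let-7a word, chr2:164778184-164778213, minus strand: tgaggccaggtcCTACCTCagcgaggagat

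Tnnc2 miR-133b word, chr2:164778208-164778237, minus strand: ctttctacagacGGACCAAcaggctgaggc

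The capitals mark CTACCTC and GGACCAA, and the last window crosses from intron into exon. The peak over the let-7a word had log2 folds of 4.74 in WT set 1, 1.0 in KO set 1, 1.10 in WT set 2 and 1.33 in KO set 2. Of the 190 listed member peaks of WT set 1 it was among the 6 with a log2 fold of at least 4. The other place was the end of the 5′ UTR at chr2:164779657-164779737, with 5.14 in WT set 1 and highest overlapping values of 1.17 in WT set 2 and 1.55 in KO set 2. In KO set 1 the 78-nt peak over the 5′ UTR had 1.33, and a 3-nt peak next to it in the intron had 3.55. WT set 1 was high and WT set 2 low at both places, so the libraries of 1 genotype differed more than those of different genotypes in set 2.

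Enriched member peaks that overlapped an enriched peak in another library were found at 2 loci. The first was the boundary of the Tnnc2 5′ UTR with the intron, where the enriched peak of KO set 1 was the one of 3 nt, at chr2:164779658-164779660 on the intron side. The second was the first Tpm1 intron site printed above, with 4.50 in WT set 1 and 3.07 in KO set 2.

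For the single troponins, the highest peak with a −log10 p of at least 3 was as follows. Tnnt3 reached 3.04 in the CDS in WT set 1, 1.72 in an intron in KO set 1, 1.87 in an intron in WT set 2 and 1.71 in the 5′ UTR in KO set 2. Tnni2 reached 3.51 in the 5′ UTR in WT set 1, at chr7:142441814-142441865, and 1.31 in KO set 2, and had no such peak in KO set 1 or WT set 2. Tnnc2 reached 5.18, 3.55, 1.19 and 1.55. Tnnt1 reached 3.33, Tnni1 3.27 and Tnnc1 2.98 in WT set 1, each at its only such peak, and none had one in the other 3 libraries. No slow troponin peak outside WT set 1 therefore passed the −log10 p threshold over input.

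The sets were then compared by position. Of the members' peaks in WT set 1, 74.2% overlapped a listed WT peak of set 2 by at least 1 nt (95% Wilson interval 67.6 to 79.9), and of those of WT set 2, 79.4% overlapped one of set 1. For KO the shares were 84.0% of set 1 peaks and 92.8% of set 2 peaks. Over all listed peaks the shares were 69.5% in WT set 1, 29.3% in WT set 2, 54.1% in KO set 1 and 28.3% in KO set 2. Acta1 reached 100% in WT set 1 and KO set 1, and Tnnt3 96.3% and 97.1%. Other members were shared less. In WT set 1 and KO set 1, Tpm3 reached 50% of 18 and of 24 peaks, Tnni1 25% of 12 and 12.5% of 8, Tnnt1 5.56% of 18 and 25% of 12, and Tnnc1 0% of 5 and 25% of 4. A dense tiling of peaks over a short transcript makes overlap likely.

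The genotypes were compared next. The members' median over input was 0.41 in WT and −0.40 in KO (mean of 2 sets each), a difference of −0.81 on the log2 scale. The exact two-sided permutation test gave p = 0.333, the smallest that 2 against 2 libraries allow. Within set 1 the difference was −1.47 and within set 2 it was −0.16, so the difference was larger in set 1. With adjoining peaks merged the set 2 medians were 0.0079 in WT and 0.016 in KO, and the difference over both sets was −0.60 with p = 0.667 in the same exact test. The fast minus slow difference was lower in KO by 0.44 on average, 0.71 against 1.1 in WT, with p = 1 in the same exact permutation test.

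The direct lists compare both immunoprecipitated libraries of a set with each other. One list gives WT over KO at peaks called in WT, the other KO over WT at peaks called in KO. Each pair of lists holds the same 2 libraries, so they are not independent of each other. At WT peaks the members' median log2 WT over KO was 0.57 in set 1 and 0.17 in set 2, a mean of 0.37 ± 0.28 (SD, n = 2 sets), beside 0.74 and 0.30 for all listed peaks. At KO peaks the median log2 KO over WT was −0.55 in set 1 and −0.16 in set 2, a mean of −0.35 ± 0.28, beside 0.72 and 0.27 for all listed peaks. At KO peaks 25% and 27.1% of the members' peaks were higher in KO, against 67.5% and 62.6% of all. At WT peaks 80% and 75.3% of the members' peaks were higher in WT, against 80.4% and 67.1% of all. Each list holds peaks called in the library it names first, and the list medians were above 0 in both directions. All listed peaks are therefore no neutral reference here. By the median over peaks the members were higher in WT in all 4 lists, but with every gene counted once the log2 KO over WT of set 2 was 0.17. In set 2 the fast troponins were near 0, at −0.04 WT over KO and 0.0008 KO over WT. At their 6 WT peaks of set 2 the slow troponins had a median log2 WT over KO of 0.62. At their 6 KO peaks they had a median log2 KO over WT of 1.07, so the direction depended on the list.

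Acta1 was the most uniform. All 34 of its WT peaks in set 1 and all 69 in set 2 were higher in WT, and all 59 and 71 of its KO peaks were lower in KO. Its median log2 WT over KO was 0.96 in set 1 and 0.23 in set 2, and its median log2 KO over WT −0.87 and −0.23. These lists compare immunoprecipitates without their inputs, and over input the medians of Acta1 in set 2 were −1.17 in WT and −1.08 in KO, in the other order. RNA abundance of Acta1 was not analysed here.

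**Figure D4:**
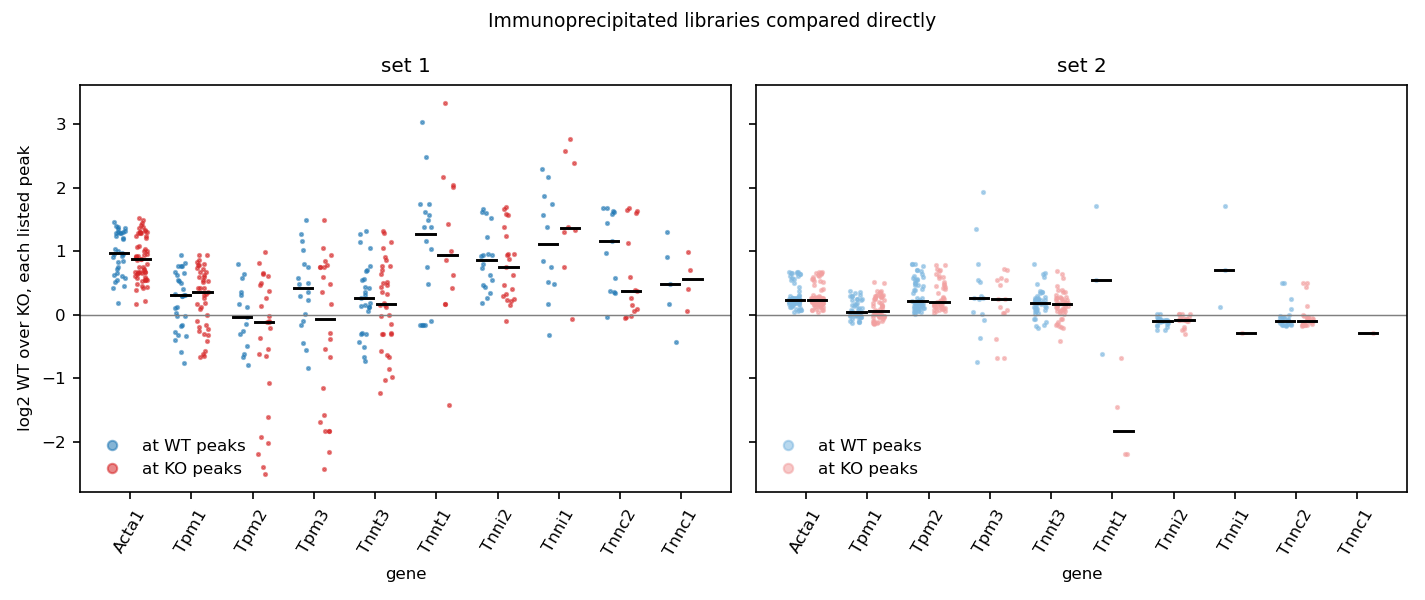
Log2 WT over KO (vertical axis) of every listed peak of the 10 genes (horizontal axis) in the direct comparison of the immunoprecipitated libraries, at the WT and the KO peaks of set 1 (left) and set 2 (right), with the sign of KO over WT turned and a bar at each median. Acta1 lies wholly above 0 in both sets, and Tnni2 and Tnnc2 have medians above 0 in set 1 and below 0 in set 2.

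The troponins did not keep a direction. At WT peaks Tnni2 had a median log2 WT over KO of 0.86 in set 1 and −0.10 in set 2, and Tnnc2 1.2 and −0.10. Tnnt3 had 0.27 and 0.18, with 20 of 27 and 39 of 45 peaks above 0. The slow troponins Tnnt1 and Tnni1 had 1.27 and 1.11 in set 1, where Tnnc1 had 0.48, and few peaks in set 2. At KO peaks of set 2, the 4 Tnnt1 peaks had a median log2 KO over WT of 1.83, but the highest of their −log10 p values was 0.655.

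Tpm1 was higher in WT by its medians in all 4 lists, with 0.31 and 0.04 at WT peaks and −0.35 and −0.05 at KO peaks. Tpm2 changed direction between the sets. At the KO peaks of set 1 between 234 and 853 nt into its 3′ UTR, 7 in all, the log2 KO over WT ran from 1.07 to 2.50. Around the end of the coding sequence set 1 went the other way, with a log2 KO over WT of −0.61 at the KO peak and a log2 WT over KO of 0.58 and 0.17 at the first pair of WT peaks. At every WT peak of set 2 that lay wholly in the same 3′ UTR the log2 WT over KO was above 0, from 0.26 to 0.80. At the miR-206 word the log2 WT over KO was −0.79 in set 1 and 0.58 in set 2. Tpm3 had medians of 0.42 and 0.26 at WT peaks, and a median log2 KO over WT of 0.07 and −0.24 at KO peaks. In set 1 its direction thus depended on the list.

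By the same thresholds of 3, 1 member peak was called in a direct list. It lay in the coding sequence of Tnnt1 at chr7:4510313-4510388, with a log2 WT over KO of 3.03 and a −log10 p of 7.75 in set 1. Over input it stood at 3.33 in WT set 1, the overlapping KO set 1 peak at −2.20 and the overlapping KO set 2 peak at −0.44, and WT set 2 had no listed peak there. The background was 0.469% of all listed peaks in WT over KO set 1 and 0.179% in KO over WT set 1. In set 2 it was 0.0192% in WT over KO and 0.0144% in KO over WT. Members made 1 call of 190 peaks in WT over KO set 1 (0.526%), near the background, and 0 in the other 3 direct lists.

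The rest of the thin filament was summarised from a list of 22 genes, including other actins, tropomodulins, leiomodins, nebulins and actin-capping proteins. Of these, 20, 20, 21 and 21 had listed peaks in WT set 1, KO set 1, WT set 2 and KO set 2, with medians of 0.93, −0.26, −0.003 and 0.04. The members' own medians had the same order of libraries except between the genotypes of set 2. Neb, the giant protein along the filament, had the most peaks, 283, 274, 561 and 552, and medians of 0.92, −0.67, −0.13 and −0.07. Lmod2, a leiomodin, had the highest median in WT set 1 at 3.20 and 0.52, 0.75 and 0.29 elsewhere. Actg1, a cytoplasmic actin, had the lowest median in WT set 1, and its values over the 4 libraries were −1.29, −1.20, −1.65 and −1.18. Tpm4, a tropomyosin of non-muscle cells, had 1.47, 2.12, 2.19 and 1.58.

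Among 2582 other genes with at least 10 listed peaks in each of the 4 libraries, those with medians nearest to the members' were Rnf123, Gpc1, Ubac1, Kpna1 and Pla2g16. Their Euclidean distances over the 4 libraries ran from 0.132 to 0.226 log2 units. Rnf123, for example, had medians of 0.87, −0.46, −0.21 and −0.32. Ubac1 and Kpna1 had the same WT set 1 median as Rnf123, a value that also recurs at single slow troponin peaks of that list.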

How the data were processed

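Total immunoprecipitated AGO2 libraries of TA muscle and their inputs were analysed, 1 per genotype in each of 2 sets; libraries enriched for miR-486 were not used here. Per the submitters' processing notes and methods, the authors trimmed reads with cutadapt, aligned them with STAR to GRCm38, called peaks in each library with CLIPper and did not pool replicates. For each peak the authors deposited a log2 fold between 2 libraries and the −log10 of its p-value, which is 0 at every peak with a negative log2 fold and at most 400. Direct lists hold the authors' own comparison, used here as deposited. No read counts were given, so absolute depth is unknown.

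Genes were those of GENCODE M21; the labels name a later release of the same assembly. The midpoint of a peak set its region, CDS before 3′ UTR, 5′ UTR, noncoding exon and intron. Seed words of 7 nt, complementary to microRNA bases 2 to 8, were sought on the strand of the gene in peaks extended by 25 nt. Exact tests took libraries as units. Shares have 95% Wilson intervals. All 10 genes are named. Single peaks were named if enriched in at least 2 libraries, past the thresholds in a direct list, or highest for a troponin at a −log10 p of at least 3; the microRNA sites were chosen after their values were seen. The genes and lists were chosen with earlier results of these data known. Functions were tested on simulated data. Analyses used Python 3.11.15, numpy 2.4.6, pandas 2.3.3 and scipy 1.17.1.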

Additional observations from a re-analysis of the deposited data

Results flagged for a closer look

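The troponin I pair moved in opposite directions in the 2 sets. Tnni2 minus Tnni1 was 1.5 in WT set 1 and 1.4 in KO set 1, and −1.47 in WT set 2 and −1.80 in KO set 2 (medians, log2 over input). Tnni1 had 12 and 8 peaks in set 1, and 3 peaks and 1 peak in set 2. The difference between the sets was not tested.

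In the direct comparisons 3 genes had medians of opposite direction in the 2 sets, and these differences were not tested either. Tnni2 had a median log2 WT over KO of 0.86 and log2 KO over WT of −0.75 in set 1, and −0.10 and 0.08 in set 2. Tnnc2 had 1.2 and −0.38 in set 1, and −0.10 and 0.09 in set 2. Tpm2 had −0.03 and 0.12 in set 1, and 0.21 and −0.20 in set 2.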

How the results depend on the processing

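The mean fast minus slow difference ranged from 0.80 to 1.20 on leaving out each library in turn, highest without KO set 2. It was −0.0695 with Tpm1 added as fast and Tpm3 as slow, and kept its direction when only exon peaks, midpoints, length weights, gene means or merged peaks were used (0.46 to 1.04). The KO minus WT difference of the members was −0.81 and ranged from −1.47 to −0.16 with 1 set left out. With the replicate block, a difference within each set, it was −0.81 by construction, with an exact p of 0.5. The replicate number is the number of the set, and no source says that a set pairs animals. The KO minus WT fast minus slow difference ranged from −0.91 to 0.0203 with 1 set left out. The direct medians kept their direction, from 0.17 to 0.57 for WT over KO and from −0.55 to −0.16 for KO over WT with 1 set left out. With every gene counted once the KO over WT mean was −0.17, and its set 2 value was above 0.

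With the log2 threshold lowered from 3 to 1, 87, 17, 58 and 49 member peaks passed over input in WT set 1, KO set 1, WT set 2 and KO set 2. At a threshold of 4 there were 6, 0, 0 and 0. In the direct lists of set 1, 35 (WT over KO) and 9 (KO over WT) passed a threshold of 1, and 0 passed 4 in WT over KO. A −log10 p threshold of 5 changed no count. When the overlap had to cover most of each peak (a fraction of 0.5 of both) the shares found in the other set were 48.4% in WT set 1, 54.9% in KO set 1, 32.1% in WT set 2 and 45.7% in KO set 2. Of the enriched peaks 61.5% of 13 (WT set 1), 0% of 1 (KO set 1) and 100% of 1 (KO set 2) were found in the other set, and WT set 2 had none to follow.

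A word for any of the 7 microRNAs searched was in 2 of 19 member 3′ UTR peaks in WT set 1, 3 of 35 in KO set 1, 6 of 43 in WT set 2 and 5 of 39 in KO set 2. Of all listed 3′ UTR peaks 18.1%, 12.4%, 15.0% and 15.3% held such a word, a larger share than of the members' in each library. Member peaks with a word numbered 1, 2, 2 and 2 without the extension, and 1, 1, 4 and 3 in windows of 100 nt, an alternative chosen after seeing the data. The cause of these changes was not tested. With 4 libraries the smallest p was 0.125 for the sign-flip test and 0.333 for 2 against 2. The lists hold called peaks only, so an unlisted site has no value rather than a low one.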
